A study of Arabidopsis thaliana with 8 samples.

Results

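UDP-glycosyltransferases of the UGT family, 48 of the 13356 genes with a probe set of their own, were followed in whole Arabidopsis thaliana plants of 2 accessions. The genes were chosen by name: 47 carried a symbol of UGT and a digit in the platform annotation, and UGT74C1, which that annotation and RefSeq list only by its locus AT2G31790, was added by its locus. Each had 1 probe set, so no choice among probe sets arose. The labels call Cal-0, stock N1063, a calcicole, as plants that favour soils rich in lime are called, and Col-4, stock N933, a non-calcicole. Seeds of both were kept for 48 hours at 4 °C for stratification, and the plants grew in sand at 23 °C on Long Ashton nutrients at 0.5 of full strength, supplied with calcium chloride at 1 mM, to stage 3.90. RNA from 4 samples of each accession was measured on 8 ATH1 arrays, 1-colour Affymetrix arrays with probes designed on Columbia sequence. All samples received the same calcium supply, so the comparison is between accessions and not between calcium doses. Nothing in the labels says that replicates came from separate plants. The p-values thus measure how far these samples spread, and that spread may be technical.

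UGTs move a sugar, most often glucose from UDP-glucose, onto small molecules such as hormones, flavonoids, phenolic acids and toxins taken up from outside. The sugar makes the molecule more soluble, usually less active, and ready for storage in the vacuole. A UGT name gives a number for the family, a letter for the subfamily and a last number for the gene, so UGT74B1 and UGT74C1 belong to different subfamilies of UGT74. Many Arabidopsis UGT genes lie side by side as copies of each other. In whole plants, a lower signal can mean fewer cells that use the gene or less of its RNA per cell. In Cal-0 it can also mean a poorer match to probes designed on Columbia sequence. These cannot be told apart here.

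The 8 arrays had median signals of 44.0 to 50.1 units over all probe sets that are not controls, and their number, not a read depth, limits the precision. Leaf marker genes were strongly detected in both accessions, with 5744 ± 1019 units for LHCB4.1 in the Cal-0 arrays and 6682 ± 1885 in those of Col-4 (mean ± SD, n = 4, as throughout). PYK10, a gene of root tissue, was at 788 ± 330 and 605 ± 230, so leaf and root genes were both present, as the label of whole plants has it. Of 16 leaf and 12 root marker names looked for, 2 and 3 were matched to a probe set. The others matched were LHCB4.2, at 2947 ± 960 and 4226 ± 795, EXPA7 of root hairs, at 45.6 ± 8.35 and 48.6 ± 27.7, and LBD29, at 4.90 ± 1.26 and 5.35 ± 1.79. None of these genes passed between the accessions, but LHCB4.2 did so, lower in Cal-0, with the replicate block described further on (limma adjusted p = 0.0239). The flower and seed markers were not analysed here. As a sign of RNA quality, the control probe sets of GAPDH and actin gave a log2 ratio of their 3′ over their 5′ signal that lay between 1.48 and 1.92 in Cal-0 and between 0.907 and 2.32 in Col-4. In replicates 1 and 2 the ratios were 1.65 and 1.48 in Cal-0 against 0.933 and 0.907 in Col-4, without overlap. In replicates 3 and 4 they were 1.83 and 1.92 against 1.62 and 2.32. The part of this ratio in the differences below was tested only as a covariate.

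Of the 48 genes, 23 had a mean of at least 25 signal units over the 8 arrays and were tested, which is 47.9% of the family where 66.7% of all probe sets were tested. The other 25 had means between 0.912 and 23.3, and in 15 of them the mean was under 10. No array of these 25 exceeded 37.5 units, and in none of them did the 4 Cal-0 values separate from the 4 Col-4 values. How often the accessions separate among all probe sets below the filter was not counted. Signals of different probe sets depend on their probes, so their order is not read here as an order of RNA levels. Means of different genes were set side by side for the filter and to choose which gene of each subfamily to name.

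**Figure D1:**
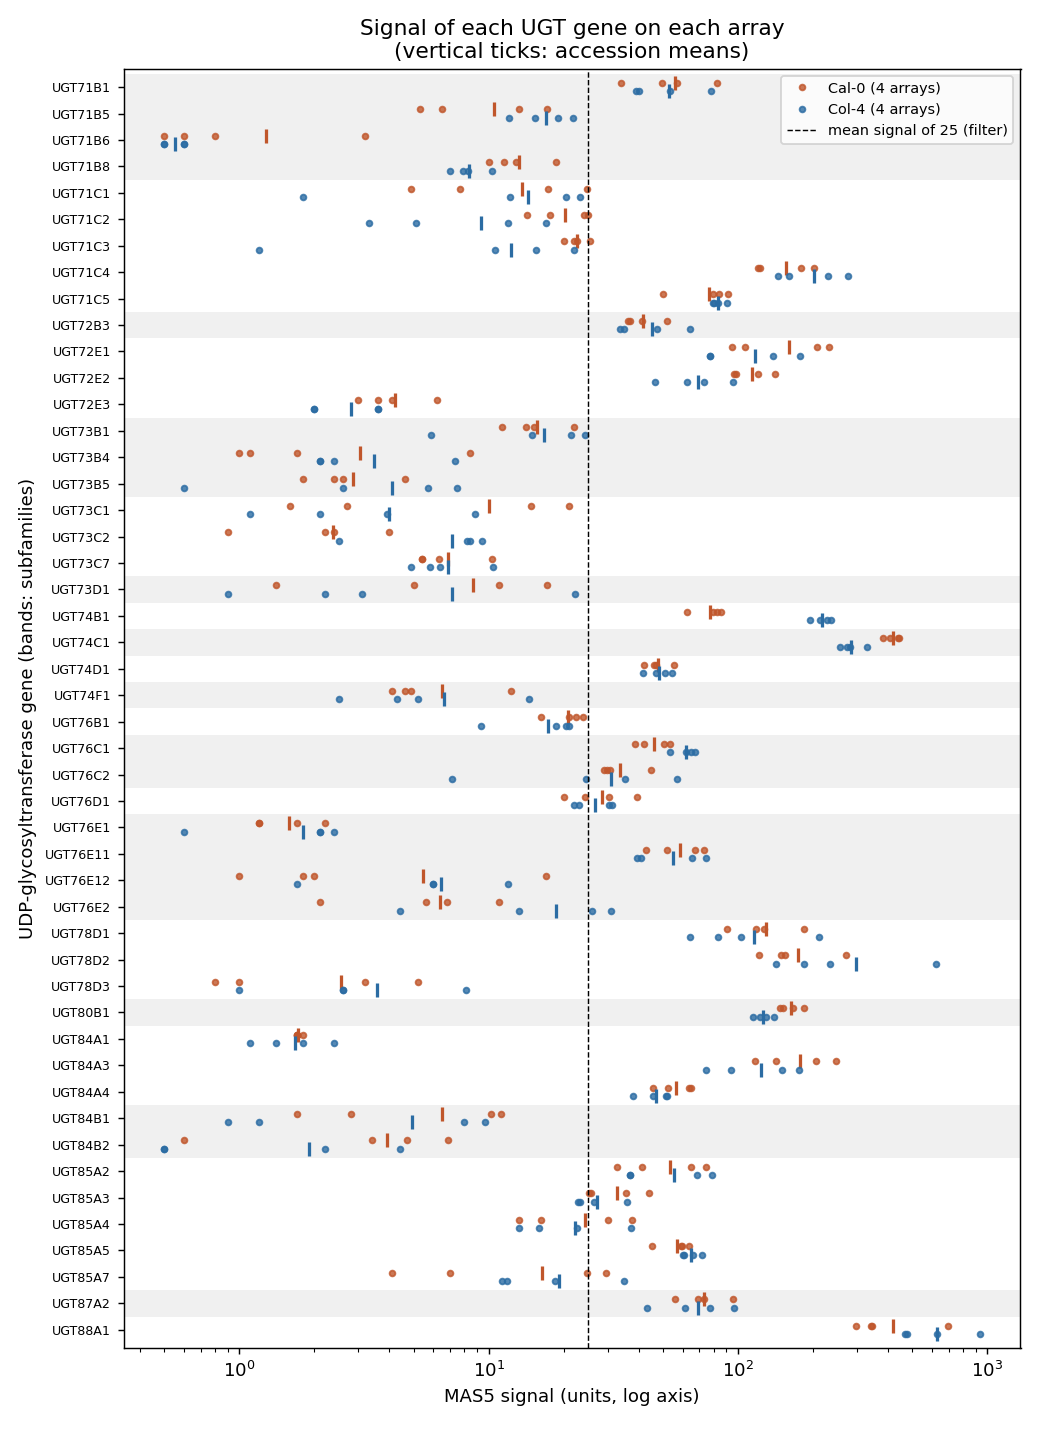
MAS5 signal of each of the 48 UGT genes on each array, on a log axis, with Cal-0 and Col-4 in separate colours, accession means as vertical ticks and alternating bands for subfamilies. The 25 genes with a mean left of the dashed line at 25 units were not tested, and UGT74B1 and UGT74C1 show the accessions apart.

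Whole subfamilies fell under the filter. None of the 7 UGT73 genes was tested: UGT73B1, UGT73B4, UGT73B5, UGT73C1, UGT73C2, UGT73C7 and UGT73D1 had means of 3.26 to 16.1. UGT73B1 had 15.7 ± 4.54 in Cal-0 and 16.6 ± 8.16 in Col-4, UGT73C1 10.1 ± 9.49 and 3.98 ± 3.42, and UGT73D1 8.63 ± 6.90 and 7.13 ± 10.2. Both UGT84B genes were low as well, UGT84B1, which makes the glucose ester of auxin, at 6.48 ± 4.92 and 4.95 ± 4.56 and UGT84B2 at a mean of 2.90 over the 8 arrays. UGT74F1, an enzyme gene of salicylic acid glucosylation, stood at 6.48 ± 3.90 and 6.63 ± 5.37. UGT76B1, which acts on isoleucic acid and salicylic acid, was at 20.9 ± 3.36 and 17.4 ± 5.48.

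Neighbouring genes of the same subfamily often differed in whether they were tested. By the gene order that RefSeq gives for TAIR10.1, 31 of the 48 genes lie in 13 clusters with at most 2 other protein-coding genes between members, the largest holding 4. In 6 clusters tested and untested genes stand together, in 6 no gene was tested, and in the remaining 1 both were. In the UGT71B cluster UGT71B1 had 55.7 ± 20.1 in Cal-0 and 52.8 ± 18.2 in Col-4, while UGT71B8 had accession means of 13.3 and 8.38 and UGT71B6, which makes the glucose ester of abscisic acid, of 1.28 and 0.550. UGT71B5, elsewhere in the genome, was under the filter too. The directly adjacent UGT71C5, UGT71C4 and UGT71C3 were tested but for the last, with accession means of 22.6 and 12.4, and the separate pair UGT71C1 and UGT71C2 had means of 14.0 and 14.8 over the 8 arrays. Of the 4 UGT76E genes only UGT76E11 was tested, UGT76E1, UGT76E2 and UGT76E12 having means of 1.69, 12.5 and 5.94. UGT85A2, UGT85A3 and UGT85A5 were tested from a cluster in which UGT85A7 had a mean of 17.7, and the lone UGT85A4 one of 23.3.

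Between the accessions, 2 of the 23 tested UGT genes passed limma's test (adjusted p under 0.05 by Benjamini-Hochberg over all probe sets), of which 1 was higher in Cal-0 and 1 was lower. That is 8.70% of the tested members, where 4.29% of all 15165 tested probe sets passed, 1.54% higher and 2.75% lower. Of the 2 genes that passed, UGT74C1 was the 1 added by its locus, with earlier results of these data known. The share is therefore not that of genes chosen by symbol alone, and the later counts among the 23 include UGT74C1 too. Both genes that passed act in glucosinolate synthesis, and they went in opposite directions. Of the 23 differences 13 were positive and 10 negative, with a median of 0.05 on the log2(signal + 16) scale beside 0.03 over all tested probe sets. Differences on this scale understate the change of low genes.

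**Figure D2:**
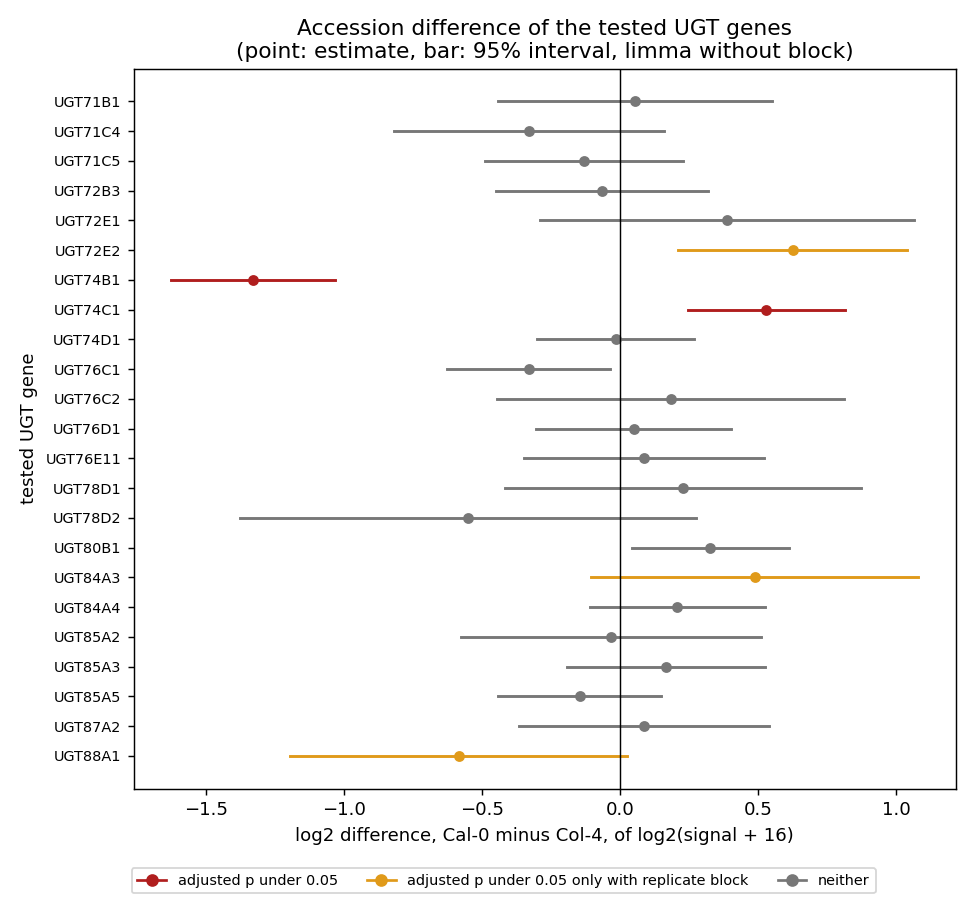
log2 difference between Cal-0 and Col-4 of each of the 23 tested UGT genes, on the log2(signal + 16) scale, with its 95% interval from limma without a block. The interval of UGT74B1 lies wholly under -1.03 and that of UGT74C1 between 0.24 and 0.81, while 21 genes did not pass.

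UGT74B1 (AT1G24100) adds glucose to the sulfur of thiohydroximates, the next-to-last step of the glucosinolate core, which sulfotransferases then complete. Its signals were 82.6, 85.2, 62.6 and 79.2 in Cal-0 replicates 1 to 4 and 213, 195, 237 and 228 in Col-4 replicates 1 to 4. The means were 77.4 ± 10.2 and 218 ± 18.5, and the groups lie far apart, with no array of either between them. The log2 difference was -1.33, with a standard error of 0.14 and a limma adjusted p of 0.000173. Within arrays 1 to 4 of the titles it was -1.14 and within arrays 5 to 8 it was -1.52, and it passed in both, in 1 fit that shares the spread of both sets (limma adjusted p = 0.00826 and 0.00169). UGT74B1 passed in every alternative tried, with differences from -1.52 to -1.07. How well its probes match the Cal-0 sequence was not tested.

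UGT74C1 is linked to the same sulfur glucosylation on the way to methionine-derived glucosinolates. Cal-0 replicates 1 to 4 had 442, 409, 382 and 440, against 282, 274, 329 and 257 in Col-4. The means were 418 ± 28.7 and 285 ± 30.6, and the groups did not overlap, Cal-0 replicate 3 and Col-4 replicate 3 being the closest arrays. The log2 difference was 0.53 (standard error 0.13, limma adjusted p = 0.0428). The gene kept its sign throughout, with differences of 0.47 to 0.60, but its p-value lay close to the threshold. It did not pass with a pseudocount of 1 (limma adjusted p = 0.0684), within arrays 1 to 4 (0.148) or within arrays 5 to 8 (0.301). Leaving out 1 array also ended the call in 7 of 8 cases: the limma adjusted p was 0.133, 0.0856, 0.0676 and 0.0982 without Cal-0 replicates 1, 2, 3 and 4, and 0.0945, 0.121 and 0.0858 without Col-4 replicates 1, 2 and 4. An exact two-sided permutation test over the 8 arrays gave p = 0.0286 for UGT74B1 and for UGT74C1, the smallest that 4 against 4 arrays allow. Any gene whose accessions do not overlap gets this unadjusted value, so it adds nothing to the lack of overlap.

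The other glucosinolate genes on the list used here did not pass without a block. The list held 30 names, of which 6 were matched by name to a probe set and 5 were tested. Of these 5, UGT74C1 itself was higher in Cal-0, UGT74B1 itself was lower, and the other 3 did not pass. The median of 0.45 is over all 5. BCAT4, an aminotransferase gene at the start of methionine chain elongation, had a log2 difference of 0.49 (limma adjusted p = 0.20), and GSTU20, a glutathione transferase tied to methionine-derived glucosinolates, of 0.45 (limma adjusted p = 0.0914). GSTU20 passed, higher in Cal-0, with the array sets as a block (limma adjusted p = 0.0485) and after quantile normalization (0.0453), but not with the replicate block (0.0508). AOP1, of a locus that modifies side chains, had a difference of -0.08. AOP3 of the same locus was below the filter, with means of 6.70 ± 5.56 and 4.93 ± 4.89. UGT74D1, a UGT74 gene that acts on auxin and its oxidised form, was at 47.7 ± 5.65 and 48.4 ± 5.33, with a 95% interval of the difference from -0.30 to 0.27.

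The 4 tested UGT genes assigned here by substrate to a phenylpropanoid group had positive differences, without passing. The direction depends on that assignment. UGT72B3 and GT72B1, UGT72 genes not placed in the group, had negative differences of -0.06 and -0.38, also without passing. With the 3′ to 5′ ratio as a covariate the 4 genes of the group stayed positive, but UGT72E1 went from 0.39 to 0.17. UGT84A3 went from 0.49 to 0.30, beside 0.48 for UGT72E2 and 0.25 for UGT84A4. UGT72E1 glucosylates the aldehydes and UGT72E2 and UGT72E3 the alcohols from which lignin is built, and the UGT84A enzymes make glucose esters of hydroxycinnamic acids such as sinapate. UGT72E2 (AT5G66690) had 98.6, 96.4, 141 and 121 in Cal-0 replicates 1 to 4 and 62.6, 46.5, 73.1 and 95.6 in Col-4 replicates 1 to 4. The accessions did not overlap, but Col-4 replicate 4 lay just under the lowest Cal-0 array. Its log2 difference was 0.62 (standard error 0.19, limma adjusted p = 0.10). It was 0.70 within arrays 1 to 4 and 0.55 within arrays 5 to 8, and without Col-4 replicate 4 it passed (log2 difference 0.76, limma adjusted p = 0.0364).

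Replicate numbers were shared between the accessions, and arrays of equal number varied together. In arrays 1 to 4 unlike numbers varied together as strongly. The pairing was taken from the data and not from the labels, and the block left 3 residual degrees of freedom. With the replicate number as a block, 5 of the 23 members passed, 3 higher and 2 lower in Cal-0 (21.7% of the members, where 8.57% of all probe sets passed, 3.61% higher and 4.95% lower). The 3 genes added were UGT72E2 (limma adjusted p = 0.0216), UGT84A3 (0.0468) and UGT88A1 (0.0210). UGT84A3 (AT4G15490) had 117, 142, 248 and 206 in Cal-0 against 93.5, 74.7, 176 and 150 in Col-4. The groups overlap, but in each of the 4 pairs of equal number Cal-0 was higher, by 0.28 to 0.80 on the log2 scale. Without the block its difference of 0.49 had a limma adjusted p of 0.445. With arrays 1 to 4 and 5 to 8 of the titles as a block, 4 of the 23 passed, which is 17.4% beside 7.22% of all probe sets (2.89% higher and 4.33% lower). UGT72E2 and UGT84A3 were among them (limma adjusted p = 0.0158 and 0.0447), and UGT88A1 was not (0.125).

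**Figure D3:**
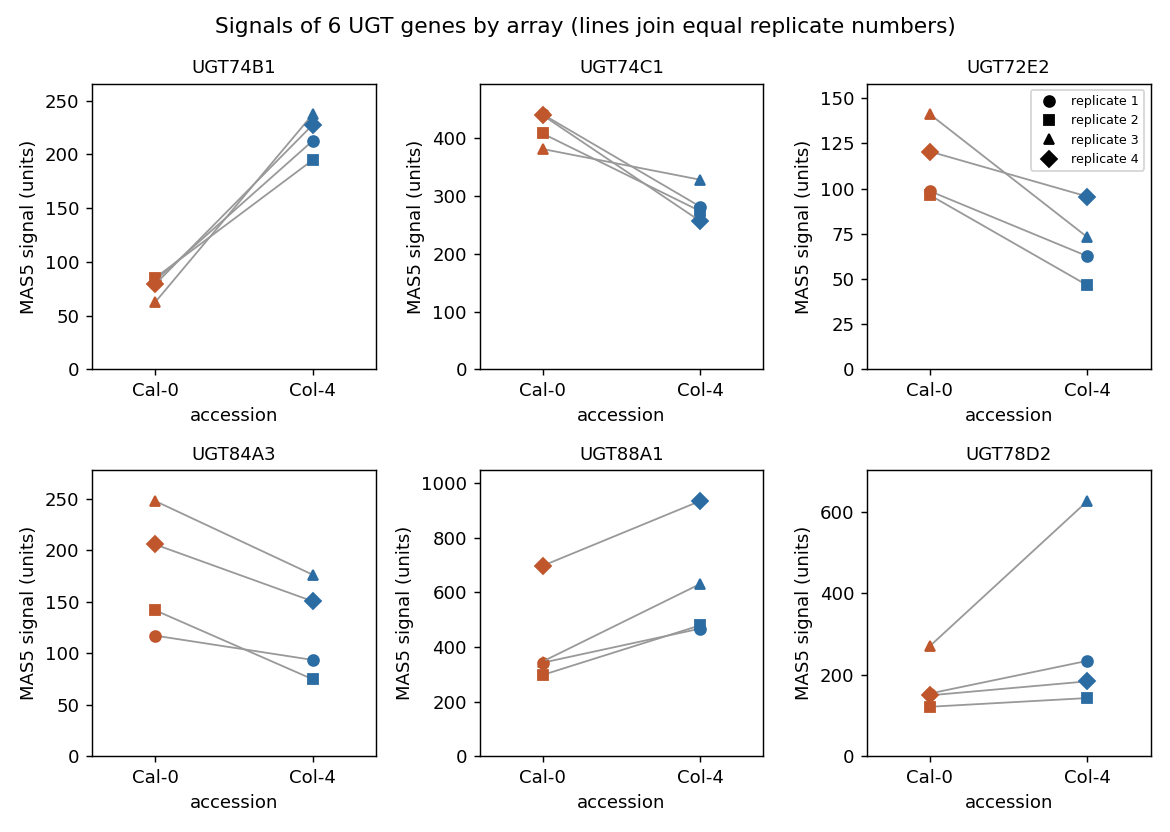
Signals of 6 UGT genes in Cal-0 and Col-4, in MAS5 units from 0, with a symbol for each replicate number and lines joining arrays of equal number. UGT74B1 and UGT74C1 separate the accessions, while in UGT84A3, UGT88A1 and UGT78D2 the lines run the same way over overlapping groups.

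Among the remaining phenylpropanoid genes, UGT72E1 had 107, 94.9, 208 and 232 in Cal-0 against 77.0, 77.2, 177 and 138 in Col-4. Every pair of equal number had Cal-0 above Col-4, yet arrays 5 to 8 of either accession exceeded all of arrays 1 to 4. The log2 difference of 0.39 did not pass (limma adjusted p = 0.637, and 0.102 with the replicate block). UGT84A4, next to UGT84A3, was at 56.6 ± 9.29 and 46.8 ± 6.54, a difference of 0.21. UGT84A1, the remaining gene of that cluster, and UGT72E3 were below the filter, with means of 1.70 and 3.51. Of the 24 names on the phenylpropanoid list 2 were matched to a probe set. HCT, an enzyme gene of monolignol synthesis and the 1 tested, had a difference of -0.18 (limma adjusted p = 0.691), and CCR2 was at 8.43 ± 6.76 and 9.60 ± 7.54.

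UGT88A1 (AT3G16520) had 342, 297, 346 and 697 in Cal-0 and 467, 479, 630 and 934 in Col-4. Replicate 4 was the highest array in both accessions, and the groups overlap through Cal-0 replicate 4. Cal-0 was lower in all 4 pairs, with log2 differences of -0.83 to -0.41, and the log2 difference was -0.59 (standard error 0.28, limma adjusted p = 0.349 without the block). Without Cal-0 replicate 4 it was -0.85 and without Col-4 replicate 4 it was -0.38. With the 3′ to 5′ ratio as a covariate, which lowered UGT72E1 and UGT84A3, the difference of UGT88A1 was -0.80 and passed (limma adjusted p = 0.0461).

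All 4 pairs of equal number went one way in 10 of the 23 tested genes, 5 higher and 5 lower in Cal-0, and in 30.1% of all tested probe sets. The accessions' arrays did not overlap in 5 genes, UGT74B1, UGT74C1, UGT72E2, UGT76C1 and UGT80B1, which is 21.7% beside 10.3% of all tested probe sets. The same 5 had an unadjusted limma p under 0.05, where 15.5% of all tested probe sets did.

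UGT80B1, a sterol glucosyltransferase gene also known as TT15 for its pale seed coat mutant, had 148, 152, 167 and 185 in Cal-0 and 122, 115, 140 and 129 in Col-4. The lowest Cal-0 array, at 148, stood above the highest Col-4 array, at 140. The log2 difference of 0.33 did not pass (limma adjusted p = 0.238), with a 95% interval from 0.04 to 0.61. SGT, which RefSeq also names UGT80A2 and which makes sterol glucosides as well, was at 96.2 ± 13.8 and 87.1 ± 10.5 without passing.

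UGT76C1 (AT5G05870) and its direct neighbour UGT76C2 attach glucose to the nitrogen of cytokinins, an inactivating step. UGT76C1 was at 50.5, 41.9, 38.8 and 53.2 in Cal-0 against 65.0, 67.4, 53.5 and 62.0 in Col-4, the accessions being parted by the narrow gap between 53.2 and 53.5. Its log2 difference was -0.33 (limma adjusted p = 0.25). UGT76C2 had 44.8, 28.9, 29.9 and 30.6 against 24.6, 35.4, 7.10 and 57.0, with the Col-4 arrays spread on both sides of those of Cal-0. Its difference was 0.18, with a 95% interval from -0.44 to 0.81.

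For other hormones and defence compounds the tested UGT genes did not pass. UGT71C5, a further gene of the abscisic acid glucose ester, was at 76.3 ± 18.2 and 83.4 ± 4.84, with a log2 difference of -0.13 and a 95% interval from -0.49 to 0.23. UGT76D1, which acts on dihydroxybenzoic acids derived from salicylic acid, was at 28.6 ± 8.43 and 26.7 ± 4.83, just above the filter, and its sign depended on single arrays. Together with UGT76C1, UGT76C2 and UGT74D1, the 5 tested hormone genes of 10 had 2 positive and 3 negative differences and a median of -0.02.

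The flavonol UGTs varied between arrays more than between accessions. UGT78D2 (AT5G17050), which puts glucose on flavonols and anthocyanidins, had 154, 121, 270 and 150 in Cal-0 replicates 1 to 4 and 234, 143, 626 and 184 in Col-4 replicates 1 to 4. Replicate 3 was the highest and replicate 2 the lowest array in either accession. The log2 difference was -0.55 with a standard error of 0.38 and did not pass (limma adjusted p = 0.569, and 0.0835 with the replicate block). Without Col-4 replicate 3 it was -0.13. UGT78D1, which adds rhamnose to flavonols, averaged 130 ± 39.0 among Cal-0 arrays and 116 ± 66.2 among those of Col-4, and Col-4 replicate 3 was its highest array, at 212. UGT78D3, an arabinosyltransferase gene with 1 other protein-coding gene between it and UGT78D2, was below the filter, at 2.55 ± 2.07 and 3.58 ± 3.11.

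Anthocyanin genes outside the UGT symbols had the same replicates high. UF3GT, which RefSeq also names UGT79B1 and which lengthens the sugar chain of anthocyanins, had 204, 122, 385 and 102 in Cal-0 against 607, 284, 810 and 206 in Col-4. DFR, an enzyme gene of anthocyanin synthesis, had 482, 368, 737 and 294 against 1229, 786, 1440 and 630. In both genes replicate 3 was again the highest and Cal-0 was the lower array of every pair. Their log2 differences of -1.14 and -1.10 did not pass over all probe sets without the block (limma adjusted p = 0.227 and 0.0694), and passed with it (0.00116 and 0.000824). With the array sets as a block neither passed (0.183 and 0.0608). Of the 34 names on the flavonoid list 6 were matched to a probe set and 4 were tested, of which none passed without the block, with a median of -0.82; at an unadjusted limma p under 0.05 these were DFR and UF3GT.

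The remaining tested genes did not pass. UGT71C4 had 120, 123, 203 and 180 in Cal-0 and 160, 145, 229 and 277 in Col-4, each Cal-0 array lying under the Col-4 array of its number. Its difference of -0.33 had a 95% interval from -0.82 to 0.16 (limma adjusted p = 0.564). With the 3′ to 5′ ratio as a covariate the difference of UGT71C4 was -0.51 (limma adjusted p = 0.0847). UGT71B1, UGT72B3, UGT76E11, UGT85A2, UGT85A3, UGT85A5 and UGT87A2 had differences between -0.15 and 0.17. Of these, UGT87A2, which affects flowering time, was at 73.4 ± 16.6 and 69.4 ± 22.6, and UGT85A5 at 57.1 ± 8.13 and 64.7 ± 5.57. UGT76E11 was at 58.7 ± 13.8 and 55.1 ± 17.6. UGT72B3 stood at 41.6 ± 7.27 and 45.02 ± 14.2, while GT72B1, its relative known for conjugating chlorinated phenols and anilines, was at 128 ± 9.61 and 172 ± 21.3 with a log2 difference of -0.38 (limma adjusted p = 0.16).

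Other genes of the family filed under other names did not pass either. Of 17 names tried, 4 were matched to a probe set and all were tested, GT72B1, IAGLU, UF3GT and SGT, with a median of -0.26. IAGLU, named for glucosylation of the auxin indole-3-acetic acid, was at 50.2 ± 16.3 and 57.4 ± 19.3. AT5G54010, which RefSeq also names UGT79B6, was found by that name and lay below the filter. Of 29 names for UDP-sugar supply, 1 was matched to a probe set, that of USP, a UDP-sugar pyrophosphorylase gene, with a log2 difference of -0.11 (limma adjusted p = 0.85).

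Several UGT genes differed more between sets of arrays than between accessions. The titles number the arrays from 1 to 8, and arrays 1 to 4 and arrays 5 to 8 each hold 2 arrays of each accession. Fitted with 4 means, 1 for either accession in either set, 5 of the 23 members differed between the sets, all higher in arrays 5 to 8, which is 21.7% beside 6.81% of all tested probe sets (3.50% higher and 3.30% lower). UGT72E1 had a mean of 89.0 ± 14.5 in arrays 1 to 4 and 189 ± 40.5 in arrays 5 to 8 (SD, n = 4 arrays), a log2 difference of 0.95 (limma adjusted p = 0.0105). UGT84A3 differed by 0.79 (limma adjusted p = 0.02), UGT85A2 by 0.73 (0.0192), UGT71C4 by 0.63 (0.0262) and UGT76E11 by 0.53 (0.0361). The 3′ to 5′ ratio moved with the sets. On the log2 scale it lay from 0.907 to 1.65 in arrays 1 to 4 and from 1.62 to 2.32 in arrays 5 to 8. Within arrays 1 to 4 it was also higher in both Cal-0 arrays than in both Col-4 arrays. The part of this ratio in the set differences was not tested.

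The signals of UGT85A2 were 41.1 and 32.8 in Cal-0 and 37.0 and 36.9 in Col-4 in arrays 1 to 4, and 74.6 and 64.9 in Cal-0 and 78.4 and 68.8 in Col-4 in arrays 5 to 8. The sets stand apart in both accessions and the accessions overlap within each set. In 6 of the 23 genes the sets did not overlap (26.1%, beside 15.1% of all tested probe sets). In 15 the set difference exceeded the accession difference in size, which was not counted over all probe sets. The median size of the set difference was 0.32 in the members and 0.20 over all tested probe sets. That of the accession difference was 0.21 and 0.16, so the sets differed more in both. UGT74B1 and UGT74C1 had the larger difference between accessions, with set differences of -0.015 and 0.0054. No label says what the array numbers stand for. The accession differences had the same sign in both sets in 17 of the 23 genes, which was not counted over all probe sets either. A test of the difference between the sets' accession effects gave 0 calls in limma among the 23, with 0 at an unadjusted p under 0.05, and 0 among all probe sets, with 607 at an unadjusted p under 0.05.

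**Figure D4:**
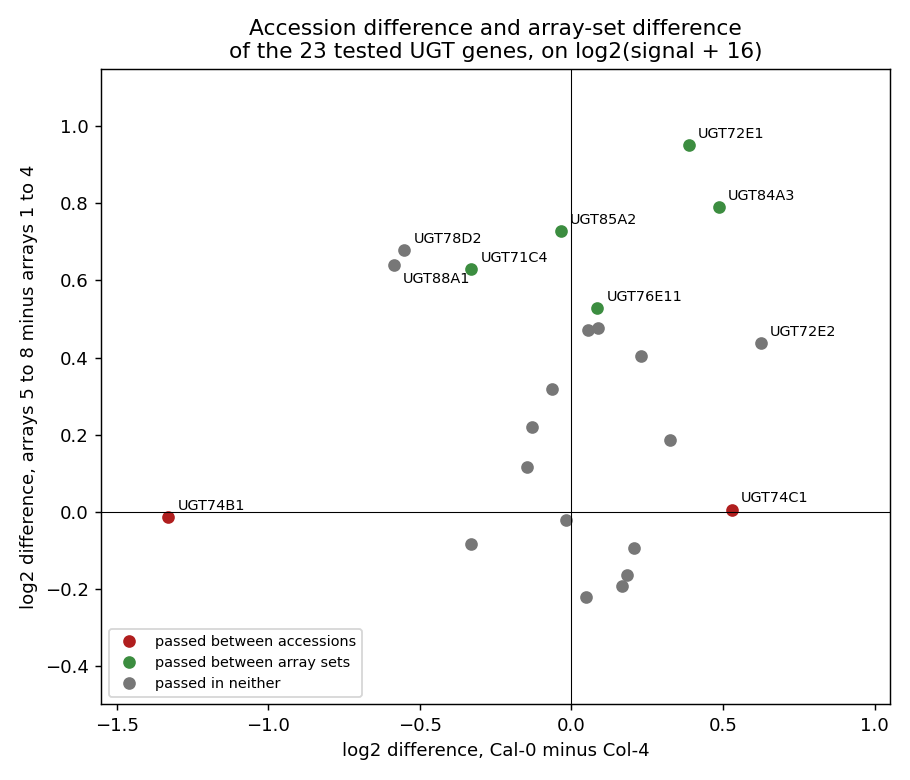
Accession difference (Cal-0 minus Col-4) against array-set difference (arrays 5 to 8 minus arrays 1 to 4) of the 23 tested UGT genes, both on the log2(signal + 16) scale. The 5 genes that passed between the array sets lie at 0.53 to 0.95 on the vertical axis, and UGT74B1 and UGT74C1 lie near 0 there.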

How the data were processed

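The authors deposited 1 linear intensity for each probe set, which the submitters' processing notes credit to MAS5 without its version or settings. After trimming 2% at either end each array had a mean of 100.01, so the arrays had been scaled to a common level. Detection calls were not used here.

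Probe sets were named from the platform annotation (13513 with 1 gene, 503 with several, 8730 not in the table) and RefSeq TAIR10.1, used for names and gene order only. List names without a match were not analysed here, which does not show that the array lacks those genes. All 47 symbols matched RefSeq. RefSeq holds 11 further UGT symbols, among them those of 3 probe sets shared by several genes, that were not analysed here. Signals were taken as log2(signal + 16). Probe sets with a mean of at least 25 over the 8 arrays, 15165 in all, were fitted with lmFit and eBayes of limma 3.58.1, run in R 4.3.3, as a two-sided test without covariates (6 residual degrees of freedom), with Benjamini-Hochberg adjustment over all of them and a threshold of 0.05. The step was checked on simulated data with independent noise in each array. The simulation held no array sets or pairs, so the check does not cover the variation that arrays share here.

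The rule for named genes took every member past the threshold or with an unadjusted p under 0.05, UGT74B1 and UGT74C1, and the member of highest mean in each subfamily; other values were chosen after they were seen. Members, lists and tests were chosen with earlier results of these data known, and the differences of UGT74B1, UGT74C1, BCAT4, DFR and UF3GT are no independent support. The entry CHI of the flavonoid list matched a chitinase gene and was left out.

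Deviations from the accession means correlated at 0.278, 0.376, 0.478 and 0.403 between arrays of equal replicate number. All 4 exceeded 0.1, so the numbers were taken to pair the samples, from the data and not from the labels. Unlike numbers correlated as strongly between replicates 1 and 2 of the accessions, at 0.382 and 0.273, and less between replicates 3 and 4, at 0.142 and 0.035. In arrays 1 to 4 the shared variation was thus not specific to the replicate number. No 2 arrays were identical. The alternatives changed the pseudocount (1 or 50), the filter (none or 100), the scaling (quantile or centred on the median), the variance model (robust, with a trend on intensity) or the blocks and covariates (replicate number, array set, 3′ to 5′ ratio), averaged the probe sets of a gene, dropped those with a cross-hybridisation suffix, kept to 1 set of arrays, or left out 1 array. The tests between array sets were added after seeing the data.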

Additional observations from a re-analysis of the deposited data

Results flagged for a closer look

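UGT76C2 in Cal-0 replicate 1 was at 44.8 signal units, where the other Cal-0 arrays lay between 28.9 and 30.6. Its gap to the nearest array was 0.877 of the range of the 4 on the log2(signal + 16) scale, above Dixon's 95% critical value for 4 values. It was the only one among 46 groups of 4 arrays of the tested UGT genes, and chance flags about 1 group in 20.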

How the results depend on the processing

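UGT74B1 passed in all 21 alternatives tried, and UGT74C1 in 11 of 21. Of the UGT genes, 5 passed with the replicate block, 4 with the array sets as a block and 1 with a pseudocount of 1, against 2 as reported, and 1 to 2 with 1 array left out. Over all probe sets 1299 passed with the replicate block, 1095 with the array sets as a block and 406 with a mean signal of at least 100, against 651; with 1 array left out the number was 412 (without Cal-0 replicate 1; 413 without Col-4 replicate 2) to 672. With the replicate block 2 flavonoid genes and 1 gene under another name, UF3GT, passed. With 1 array left out the flavonoid list had 0 to 1 and the glucosinolate list 1 to 2, while the latter had 3 after quantile normalization and with the array sets as a block. The replicate block changed no call other than those of UGT72E2, UGT84A3, UGT88A1, DFR, UF3GT and the marker LHCB4.2 (limma adjusted p = 0.0239) among the genes named. Some uncalled members changed sign. With the 3′ to 5′ ratio as a covariate UGT71B1 was at -0.051, UGT74D1 at 0.0070, UGT76E11 at -0.054 and UGT87A2 at -0.070. Within arrays 1 to 4 UGT72B3 was at 0.12, and within arrays 5 to 8 UGT71B1 was at -0.011, UGT74D1 at 0.15, UGT76D1 at -0.14 and UGT87A2 at -0.037. With the 3′ to 5′ covariate the median over the tested members was -0.051, against 0.054 as reported. With 1 array left out UGT72E1 ranged from 0.19 to 0.59, UGT84A3 from 0.30 to 0.66, UGT71B1 from -0.11 to 0.22, UGT72B3 from -0.15 to 0.076, UGT74D1 from -0.074 to 0.026, UGT76D1 from -0.063 to 0.15, UGT76E11 from -0.022 to 0.21 and UGT87A2 from -0.077 to 0.23. The cause of these changes was not tested. Signals near the filter carry little information, and the 25 genes below it were not tested for a difference.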
